A study of Homo sapiens with 6 samples.

Results

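The genes described here are 8 transcription factors of the intestinal secretory lineage, ATOH1, SPDEF, GFI1, FOXA1, FOXA2, FOXA3, KLF4 and CREB3L1. They were chosen by name, with the difference of ATOH1 between the groups already known, and each was read from the probe set with the highest mean over the 6 arrays. All 8 were on the array, among 18417 genes that the platform annotation names by 1 symbol, and each had 1 probe set. The values that were compared are therefore the values that chose the list, and they are given as a description without a p value. Where a factor is said to be past a threshold, that too is only a description. Expression was measured on Affymetrix gene arrays in HT29, an established human colorectal adenocarcinoma line. There were 3 arrays of cells with a control construct and 3 of cells with a construct expressing laminin α1, one of the chains that laminins of basement membranes are built from, and the labels give 7 days of growth for both. Each array of a group is an independent culture passage per the design text, and the sources used here do not give the promoter or sequence of the construct or the number of clones. The series title asks how this chain affects colorectal cancer cells in culture.

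In the intestinal crypt, Notch signalling between neighbouring cells decides between absorptive and secretory fates. A cell with active Notch makes HES1, a repressor of ATOH1, and a cell with little Notch activity makes ATOH1, a basic helix-loop-helix factor that pairs with E proteins on DNA sites called E-boxes and opens the secretory programme, including the Notch ligands that signal to its neighbours. Downstream of ATOH1, GFI1 favours goblet and Paneth cells over hormone-producing enteroendocrine cells, and SPDEF drives goblet cell maturation and mucin production. KLF4 and the forkhead factors FOXA1 and FOXA2 also act in goblet differentiation and mucin gene expression. CREB3L1 is a membrane-bound factor of the endoplasmic reticulum that is cleaved to reach the nucleus and acts on genes of the secretory pathway.

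The deposited values are log2 expression values. LAMA1, the gene of the construct's product, had values of 5.71, 5.63 and 5.60 with the control construct and of 5.79, 5.72 and 5.71 with laminin α1. The groups did not overlap, but the difference of 0.09 (SE 0.06) was not past the threshold of limma's test (adjusted p = 0.535), so LAMA1 on this array does not verify the labels. All 10 colon epithelial markers lay above the level filter of log2 5.50, the 25th percentile of all genes. So did 5 of 8 fibroblast and 2 of 8 endothelial and blood cell markers, of which 0 passed the limma test (0 also at an unadjusted p under 0.05). The mean of the epithelial markers was 10.7 to 10.8 in the control and 10.4 to 10.5 in the laminin α1 arrays, while the fibroblast mean was 5.48 to 5.56 against 5.49 to 5.56 and the endothelial and blood cell mean 5.40 to 5.45 against 5.41 to 5.43. The median difference of the epithelial markers was only -0.05, with 6 of 10 below 0, and CDH17 had the lowest at -1.65. Of the epithelial markers 3 of 10 fell, CDH17, the intestinal cadherin, at least 2.12-fold with the level filter as the floor, the keratin KRT20 and the galectin LGALS4 (not called without control replicate 1 or 2 or laminin α1 replicate 2, adjusted p up to 0.101), and 0 rose (0 also at an unadjusted p under 0.05). The part of these markers in the results below was not tested. In a culture measured in bulk, fewer cells of a type and less RNA per cell cannot be told apart.

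ATOH1 was far lower in the laminin α1 arrays, FOXA2 was moderately lower, and the other 6 factors differed by at most 0.22 on the log2 scale. All 8 passed the level filter. In the limma fit over 13812 genes 2 of the 8 were past the threshold of adjusted p 0.05 and lower, and 0 were past it and higher. Over all genes tested, 5.29% were called, 2.59% lower and 2.69% higher. ATOH1 was the 1 of 8 both called and at least 2-fold lower, against 0.282% of all genes. The groups did not overlap for 2 of the 8, both lower, against 21.6% of all genes in either direction and 11.5% lower. The mean was lower for 7 of the 8, against 54.4% of all genes. The factors' median difference was -0.08 and that of all genes -0.01. Since the list was chosen with these differences known, nothing is read from the counts.

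ATOH1 measured 9.76, 9.50 and 9.43 with the control construct and 7.16, 7.23 and 6.99 with laminin α1. All control arrays were high and all laminin α1 arrays low, and the lowest control lay 2.19 above the highest laminin α1 array. The group means were 9.56 ± 0.17 and 7.13 ± 0.12 (SD, n = 3), a log2 difference of -2.43 (SE 0.10, 95% interval -2.65 to -2.21) or 5.40-fold lower. Both means lay above the level filter, so the fold does not rest on a value at the floor. The difference lay between -2.50 and -2.31 in all 15 alternative fits.

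Promoter sequences are shown for ATOH1, for SPDEF as a factor with little difference, and for MUC2 and NEUROG3, genes that were lower beside ATOH1. Each runs 5′ to 3′ from 250 bases before to 50 bases after the start of the gene in RefSeq, assembly GRCh38.p14. Capitals mark E-boxes, CANNTG, which read the same on both strands, and CACGCG on either strand, a sequence that HES repressors can bind.
ATOH1, chr4:93828503-93828802, plus strand: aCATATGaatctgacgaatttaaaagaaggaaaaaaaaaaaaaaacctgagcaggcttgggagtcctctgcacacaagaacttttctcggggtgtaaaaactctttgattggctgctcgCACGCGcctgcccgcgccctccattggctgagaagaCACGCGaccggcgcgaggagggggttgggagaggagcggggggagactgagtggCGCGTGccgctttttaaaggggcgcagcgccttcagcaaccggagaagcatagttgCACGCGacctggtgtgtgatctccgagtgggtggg
SPDEF, chr6:34556280-34556579, minus strand: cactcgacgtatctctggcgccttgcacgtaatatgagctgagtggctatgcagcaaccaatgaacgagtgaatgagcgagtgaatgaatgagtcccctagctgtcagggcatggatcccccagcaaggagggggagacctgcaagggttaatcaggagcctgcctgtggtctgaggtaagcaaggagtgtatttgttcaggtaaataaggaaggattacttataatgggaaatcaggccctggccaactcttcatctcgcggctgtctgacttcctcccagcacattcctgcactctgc
MUC2, chr11:1074624-1074923, plus strand: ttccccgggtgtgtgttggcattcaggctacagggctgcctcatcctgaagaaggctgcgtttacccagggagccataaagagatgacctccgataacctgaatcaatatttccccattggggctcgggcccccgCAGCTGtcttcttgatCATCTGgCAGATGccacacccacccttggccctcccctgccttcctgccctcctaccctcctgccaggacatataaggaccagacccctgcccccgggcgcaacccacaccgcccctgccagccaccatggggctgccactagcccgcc
NEUROG3, chr10:69573373-69573672, minus strand: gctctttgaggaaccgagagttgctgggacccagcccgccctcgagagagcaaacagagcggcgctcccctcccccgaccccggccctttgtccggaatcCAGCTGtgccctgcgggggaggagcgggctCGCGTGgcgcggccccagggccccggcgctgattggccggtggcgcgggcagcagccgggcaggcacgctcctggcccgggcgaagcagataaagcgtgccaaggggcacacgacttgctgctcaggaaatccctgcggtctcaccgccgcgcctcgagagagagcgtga

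The ATOH1 promoter held 1 E-box, at its far 5′ end, and 4 copies of CACGCG, 3 of them read on the gene's strand and 1 on the other. Among 35116 promoters of this length in RefSeq, 11.4% held CACGCG at all and 0.094% held 4 or more copies. The SPDEF promoter held neither motif. The MUC2 promoter held 3 E-boxes, 1 of them CAGCTG, and the NEUROG3 promoter 1 E-box, also CAGCTG, and 1 CACGCG. E-boxes are common, with 1 or more in 68.7% of all promoters, and CAGCTG was in 17.9%. Of the 8 factors, 7 had a promoter in the table and 6 of these held an E-box in the window (for GFI1, with several start sites, the one listed earliest). A match is a description of the letters and not evidence of binding.

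FOXA2, a forkhead factor that opens chromatin in endoderm-derived tissue, measured 7.18, 7.13 and 6.92 in the control and 6.33, 6.71 and 6.58 in the laminin α1 arrays. Every laminin α1 array was below every control array, with a gap of 0.22, and laminin α1 replicate 1 was the lowest. The means were 7.08 ± 0.14 and 6.54 ± 0.19 (SD, n = 3), a difference of -0.54 (SE 0.10, 95% interval -0.77 to -0.31) or 1.46-fold lower. FOXA2 was no longer past the threshold without control replicate 1, where the difference was -0.49, or without control replicate 2, where it was -0.52. It was also not past it with all 33297 probe sets tested separately.

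FOXA1 and FOXA3, the paralogues of FOXA2, differed little between the groups. FOXA1 was 9.88, 9.81 and 9.76 in the control and 9.77, 9.82 and 9.70 in the laminin α1 arrays, a difference of -0.05 (SE 0.07, 95% interval -0.20 to 0.10). FOXA3 was 6.88, 6.98 and 6.97 in the control and 6.90, 6.87 and 6.85 in the laminin α1 arrays, a difference of -0.07 (SE 0.06, 95% interval -0.21 to 0.07). Both had overlapping groups, and their intervals lay above that of FOXA2. FOXA3 passed the threshold only with array weights, a setting whose weights did not converge.

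SPDEF, the ETS-family factor of goblet cell maturation, was 8.58, 8.50 and 8.41 in the control and 8.49, 8.48 and 8.33 in the laminin α1 arrays. Its groups overlapped, and the difference was -0.07 (SE 0.08, 95% interval -0.24 to 0.10), which reaches at most 1.18-fold lower. CREB3L1 was 9.56, 9.43 and 9.41 in the control and 9.46, 9.39 and 9.31 in the laminin α1 arrays, again overlapping, with a difference of -0.08 (SE 0.07, 95% interval -0.24 to 0.08). KLF4, a zinc-finger factor of terminal differentiation, was 6.09, 5.88 and 5.84 in the control and 6.04, 5.87 and 5.98 in the laminin α1 arrays. Its laminin α1 values lay within the control range, and the difference of 0.03 (SE 0.08, 95% interval -0.16 to 0.21) was the only one above 0 and changed sign without control replicate 3 (-0.02) or laminin α1 replicate 1 (-0.0091).

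GFI1, a zinc-finger repressor, was 5.90, 5.69 and 5.83 in the control and 5.40, 5.57 and 5.77 in the laminin α1 arrays. Laminin α1 replicate 3 lay within the control range, replicates 1 and 2 lay below it, and replicate 1 was under the level filter. The difference was -0.22 (SE 0.10, 95% interval -0.44 to -0.0025). GFI1 did not pass the threshold, and its values lay close to the level filter. For the 5 other factors not past the threshold (SPDEF, FOXA1, FOXA3, KLF4 and CREB3L1) the intervals of this fit together ran from 1.18-fold lower to 1.16-fold higher.

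**Figure D1:**
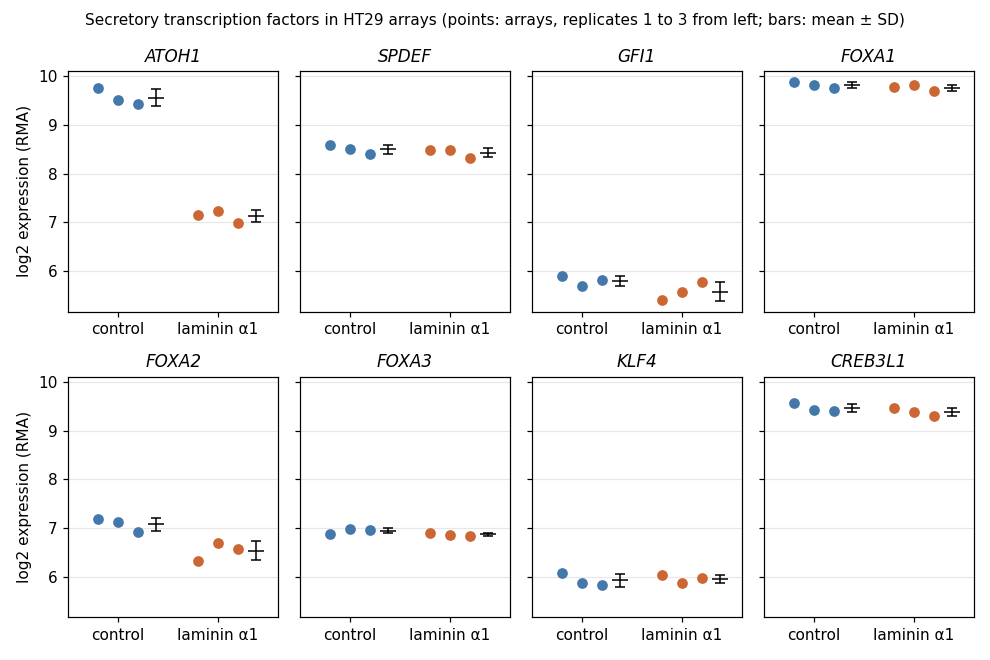
Log2 expression of each of the 8 factors in every array, control in blue and laminin α1 in orange, with the mean ± SD of each group (n = 3) beside the points. The ATOH1 arrays fall from 9.43 or more to 7.23 or less, the FOXA2 groups are apart by 0.22, and the groups of the other 6 factors overlap.

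**Figure D2:**
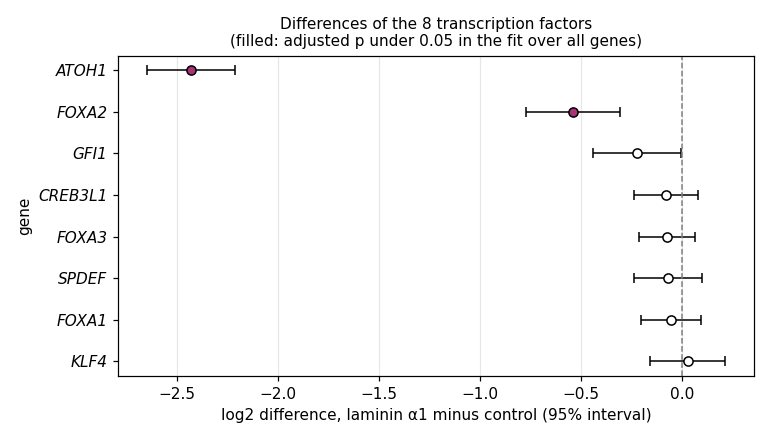
Log2 difference of each factor, laminin α1 minus control, with its 95% interval, ordered from the lowest. ATOH1 at -2.43 stands apart from FOXA2 at -0.54, and the intervals of the other factors except GFI1 cross 0.

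Some of the spread within groups was common to several factors. Control replicate 1 was the highest control array for 7 of the 8 factors, and over all genes tested it was the highest for 48.8%. Laminin α1 replicate 3 was the lowest of its group for 5 of 8, against 43.6% of all genes. For SPDEF, FOXA1 and CREB3L1 these shifts between arrays of a group were as large as the difference between the groups. The part of this shift in the factors' differences was not tested.

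The genes with the pattern most like a factor were found by the root mean square distance between log2 values, each centred on its mean over the 6 arrays. Nearest to ATOH1 was MUC2, which encodes the main secreted mucin of the colon, at a distance of 0.175. It was 8.80, 8.80 and 8.79 in the control and 6.49, 6.68 and 6.62 in the laminin α1 arrays, or 4.60-fold lower. FMNL2, a formin that builds actin filaments, followed at 0.197, REG4, a secreted lectin of goblet and enteroendocrine cells, at 0.200, AUTS2, a nuclear regulator, at 0.335 and PLXDC2, a membrane protein with a plexin domain, at 0.355. Nearest to FOXA2 were GUCA2A, the precursor of guanylin, at 0.0716 and FAM131B at 0.0732. GUCA2A was 1.35-fold and FAM131B 1.49-fold lower. For the other 6 factors the 2 nearest genes followed small shifts shared by arrays, at distances of 0.034 or less. They were GSK3A and ASF1B for SPDEF, PCGF6 and IVL for GFI1, DNAJB11 and MDH2 for FOXA1, TGFB3 and SFPQ for FOXA3, ATP6AP1L and PEX6 for KLF4 and VWA2 and SMAP2 for CREB3L1, and 0 of these 12 passed the threshold. With laminin α1, AUTS2 and FMNL2 were under log2 5.50 on all arrays. All of these distances compare only 6 arrays in 2 groups. Genes picked by distance share the factor's difference by selection, so their folds and calls are no separate result.

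Products of goblet cells were lower with ATOH1. Of 22 genes listed, 21 were named on the array and 17 were tested, of which 14 fell, 0 rose (0 also at an unadjusted p under 0.05) and 3 were not called. The median difference of the list was -0.83, against -0.01 over all genes, where 2.59% were called lower. This list was drawn up with an earlier result of the same kind known and is not independent evidence of its direction. Its mean per array, relative to the control mean, was between -0.0044 and 0.0078 in the control and between -1.11 and -1.05 in the laminin α1 arrays. MUC2 had a difference of -2.20 (SE 0.07, adjusted p = 2.13e-07). HEPACAM2, an adhesion protein found in goblet cells, was lower by a log2 difference of -3.40 (SE 0.08, adjusted p = 4.49e-08), which is at least 10.3-fold with the level filter as the floor, since its laminin α1 mean of 5.45 lay under it. RETNLB, a resistin-like antibacterial protein of goblet cells, went from 8.25 ± 0.09 to 6.76 ± 0.02 (SD, n = 3), 2.82-fold lower. REG4 fell 5.72-fold. TFF3, the goblet cell trefoil peptide, fell 3.04-fold, SPINK4, a protease inhibitor, 2.81-fold, and AGR2, a disulfide isomerase that folds mucins, 2.23-fold.

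The 3 goblet products without a call were MUC5B, ZG16 and TFF2, with differences of -0.08, -0.06 and -0.02. The groups of MUC5B did not overlap, at 6.53, 6.50 and 6.50 against 6.35, 6.46 and 6.48. ERN2, an epithelial sensor of protein folding load that is linked to mucin-producing cells, fell, with a difference of -0.66. Leaving out 1 array in turn gave 12 to 14 called products. TFF1 and GUCA2A were the ones lost, TFF1 without control replicate 1 (adjusted p = 0.0768) or control replicate 3 (adjusted p = 0.0572) and GUCA2A without control replicate 1 (adjusted p = 0.0913) or control replicate 2 (adjusted p = 0.0956).

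**Figure D3:**
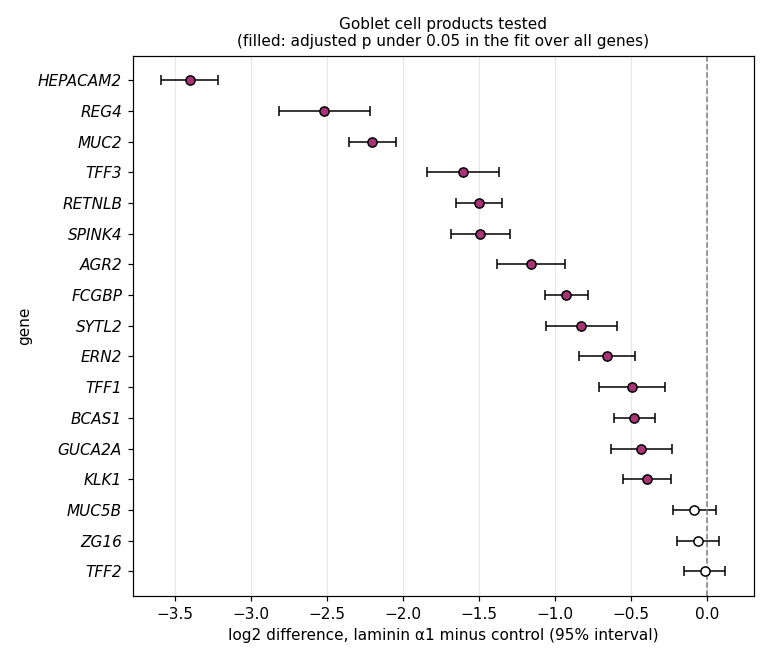
Log2 difference, laminin α1 minus control, of the 17 goblet cell products tested, with 95% intervals. The 14 filled points passed the limma threshold and run from HEPACAM2 at -3.40 to KLK1 at -0.39, and MUC5B, ZG16 and TFF2 lie near 0.

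Genes further down the secretory programme gave fewer calls. Of 14 mucin glycosylation genes tested 2 fell and 1 rose. GALNT5 and GALNT8 lay below the level filter and were not tested, with differences of -0.49 and -0.86. ST6GALNAC1, the sialyltransferase that caps mucin sugars, went from 7.08 ± 0.11 to 6.32 ± 0.08 (SD, n = 3), 1.69-fold lower with an adjusted p of 0.000233. CHST4, a sulfotransferase, fell by 0.28 (adjusted p = 0.0384, between 7.83e-05 and 0.199 over the alternatives) and FUT3, a fucosyltransferase, rose by 0.34 (adjusted p = 0.0277, between 4.09e-05 and 0.144). Without laminin α1 replicate 2 neither was called (adjusted p = 0.199 for CHST4 and 0.144 for FUT3). CHST4 was also lost without any of the control arrays, and FUT3 without control replicate 2 or 3 or laminin α1 replicate 1. Of 19 secretory pathway and folding genes of the endoplasmic reticulum, the kind of gene on which CREB3L1 acts, 0 passed in either direction (at an unadjusted p under 0.05, 0 were lower and 1 was higher), with a median of -0.01 and a range of -0.14 to 0.20. Of 11 genes linked to KLF4 in the cell cycle and differentiation 2 rose and 0 fell (0 also at an unadjusted p under 0.05). KRT13, a keratin of stratified epithelium, rose by 0.85 (adjusted p = 0.000298) and CCNB1, a mitotic cyclin, by 0.46 (adjusted p = 0.00248).

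Enteroendocrine cells also depend on ATOH1. Of 13 enteroendocrine factors and hormones tested 2 fell and 1 rose. NEUROG3, the basic helix-loop-helix factor that starts the enteroendocrine programme, was 7.63, 7.64 and 7.62 in the control and 6.21, 6.59 and 6.42 in the laminin α1 arrays. All 3 laminin α1 arrays lay below the controls, and the difference was -1.22 (SE 0.09, adjusted p = 3.63e-05) or 2.34-fold lower. PAX4, a homeodomain factor of hormone-producing cells, fell from 6.85 ± 0.08 to 6.17 ± 0.11 (SD, n = 3; adjusted p = 0.000485). ISL1, another homeodomain factor of these cells, rose by 0.32 (adjusted p = 0.0241), a call lost without any array but laminin α1 replicate 3, with an adjusted p up to 0.103. Of the 24 genes named on the array, 11 lay below the level filter and were not tested. Among them were CHGA, the general endocrine granule protein, the hormone gene GCG and the factor RFX6. Their differences were 0.07, -0.03 and -1.03. The RFX6 means, 4.95 in the control and 3.92 in the laminin α1 arrays, both lay under the filter.

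Of 9 Paneth and tuft cell genes tested 0 fell (0 also at an unadjusted p under 0.05) and 1 rose, PTGS1, a cyclooxygenase made by tuft cells, from 6.41 ± 0.11 to 7.55 ± 0.18 (SD, n = 3; adjusted p = 7.97e-05). The Paneth defensins DEFA5 and DEFA6 lay below the level filter. Of 12 enterocyte genes tested 3 fell and 0 rose (0 also at an unadjusted p under 0.05). DPP4, a brush border peptidase, fell 2.25-fold, SLC5A1, the sodium-glucose transporter, 1.61-fold and KRT20, a keratin of differentiated cells, 1.28-fold. KRT20 was not called without control replicate 2 (adjusted p = 0.0631) or laminin α1 replicate 2 (adjusted p = 0.0597). Of the 21 enterocyte genes named on the array, 9 lay below the level filter and were not tested. Among them CEACAM7 differed by 0.38 and SI by -0.25, both without overlap of the groups.

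The Notch list held HES1, upstream of ATOH1, and also ligands that belong to the programme ATOH1 opens. It gave 2 lower and 0 higher of 27 tested (0 higher also at an unadjusted p under 0.05). DLL4, a Notch ligand of secretory cells, was 7.43, 7.41 and 7.31 in the control and 6.40, 6.37 and 6.42 in the laminin α1 arrays. Both groups were narrow and lay far apart, and the difference was -0.98 (SE 0.06, adjusted p = 1.34e-05) or 1.98-fold lower. LFNG, a glycosyltransferase that modifies Notch receptors, fell by 0.31 (adjusted p = 0.0279), a call lost without laminin α1 replicate 2 (adjusted p = 0.125) or any of the control arrays, with an adjusted p up to 0.132. HES1, the repressor of ATOH1, was 8.88, 8.66 and 8.63 in the control and 8.77, 8.67 and 8.61 in the laminin α1 arrays. Its groups overlapped and its difference was -0.04 (95% interval -0.22 to 0.14, adjusted p = 0.870).

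Of 11 tested partners of ATOH1 and regulators of its stability 0 passed (0 also at an unadjusted p under 0.05), with differences from -0.13 to 0.10. TCF3 and TCF12, E proteins that pair with ATOH1, had differences of -0.04 and 0.06 (adjusted p = 0.813 and 0.801). Among 15 intestinal identity factors tested 1 fell and 0 rose (0 also at an unadjusted p under 0.05). The 1 was GATA6, an endoderm zinc-finger factor, with a difference of -0.30 (adjusted p = 0.0379) that was not called whichever array was left out (adjusted p between 0.0598 and 0.137). CDX2, the homeobox factor of intestinal identity, which also acts on ATOH1, differed by 0.03 (95% interval -0.11 to 0.16, adjusted p = 0.886). SOX9, a factor of progenitor and Paneth cells, differed by 0.05 (adjusted p = 0.765).

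**Figure D4:**
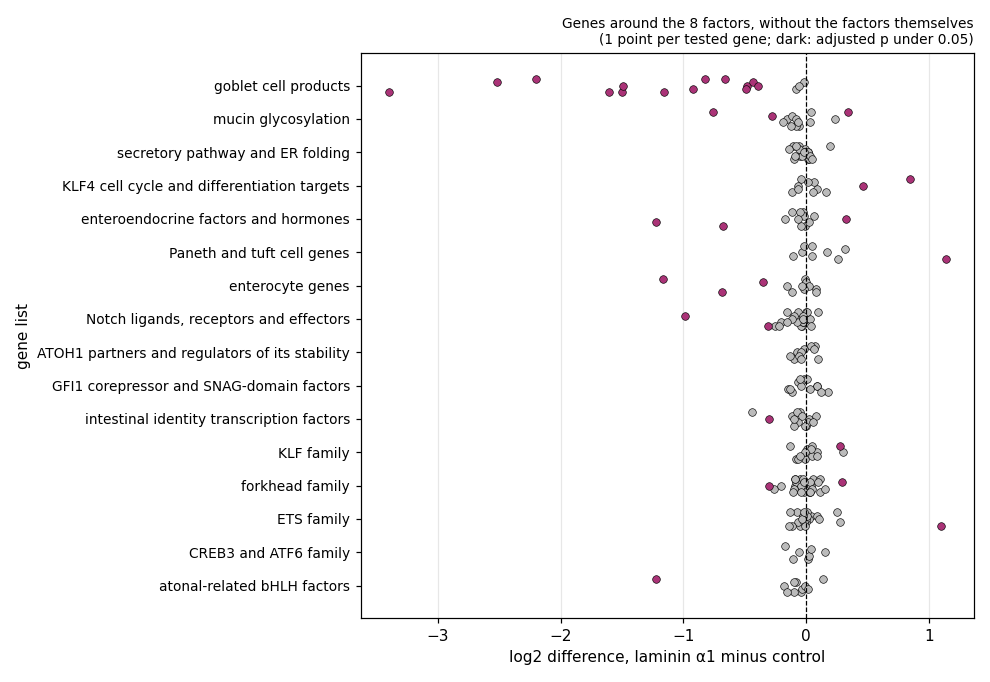
Log2 difference, laminin α1 minus control, of every tested gene in the lists around the 8 factors, which are left out themselves; dark points passed the limma threshold and vertical offsets only separate points. Goblet cell products lie to the left with a median of -0.83, and most genes of the other lists lie near 0.

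The families of the factors showed which relatives differed besides them. Of 11 atonal-related basic helix-loop-helix factors tested besides ATOH1, 1 was lower, NEUROG3, and 0 were higher (0 also at an unadjusted p under 0.05). Over all genes tested, 2.59% were called lower and 2.69% higher. Of 31 forkhead genes tested besides the FOXA factors, 1 was lower, FOXP1, by 0.30 (adjusted p = 0.0244), and 1 was higher, FOXQ1, by 0.29 (adjusted p = 0.0258). Both calls were lost without control replicate 2 (adjusted p = 0.128 for FOXP1 and 0.117 for FOXQ1) and without laminin α1 replicate 2 (0.123 and 0.128). FOXP1 was also lost without control replicate 1 (0.099) or laminin α1 replicate 1 (0.0581), and FOXQ1 without control replicate 3 (0.0988). Of 23 ETS genes tested besides SPDEF, 1 was higher and 0 lower (0 also at an unadjusted p under 0.05). It was ELF5, an epithelial ETS factor, which was 7.01, 7.12 and 7.33 in the control and 8.13, 8.18 and 8.46 in the laminin α1 arrays, 2.15-fold higher (adjusted p = 0.000175), while SPDEF did not pass.

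Of 14 KLF genes tested besides KLF4, 1 was higher, KLF6, by 0.28 (adjusted p = 0.0419), and 0 were lower (0 also at an unadjusted p under 0.05). KLF6 was called only with laminin α1 replicate 2 and all 3 control arrays in the fit, with an adjusted p up to 0.212 without laminin α1 replicate 2. None of 7 genes of the CREB3 and ATF6 family tested besides CREB3L1 passed (at an unadjusted p under 0.05, 0 were lower and 1 was higher). The same held for 14 SNAG-domain factors and corepressors tested besides GFI1, with 0 past the threshold (0 also at an unadjusted p under 0.05).

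The tested genes next to each factor in RefSeq order were read as well, 5 on each side. On chromosome 4, 4 of the 10 neighbours of ATOH1 were called lower and 0 higher, against 2.59% and 2.69% of all genes. A difference below 0 was seen in 9 of 10, against 54.4% of all genes. GPRIN3, a membrane protein of neurite outgrowth, had -0.87 (adjusted p = 0.00149), TSPAN5, a tetraspanin, -0.40 (adjusted p = 0.00405), FAM13A -0.36 (adjusted p = 0.0231) and TIGD2 -0.35 (adjusted p = 0.0443). The calls of GPRIN3 and TSPAN5 held with each array left out in turn. Those of FAM13A and TIGD2 held only without laminin α1 replicate 3, with adjusted p values up to 0.109 and 0.164 without laminin α1 replicate 2. The immediate neighbours CCSER1 and SMARCAD1 were not called, with differences of -0.15 and -0.31. The largest difference among the neighbours was thus -0.87, against -2.43 for ATOH1. The 10 neighbours of FOXA2 on chromosome 20 had 0 calls, a median of 0.05 and a range of -0.16 to 0.26. Over the 80 neighbours of all 8 factors 7 were called lower and 0 higher, and 41 had a difference below 0. The remaining 3 calls were TTC6 beside FOXA1 and TMEM38B and ZNF462 near KLF4, at -0.41, -0.48 and -0.44. ZNF462 was called with each array left out in turn. TMEM38B was lost without laminin α1 replicate 2 (adjusted p = 0.0634), and TTC6 was called only without control replicate 1 or laminin α1 replicate 3 (adjusted p up to 0.0769). The part of a regional shift in the difference of ATOH1 was not tested.

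**Figure D5:**
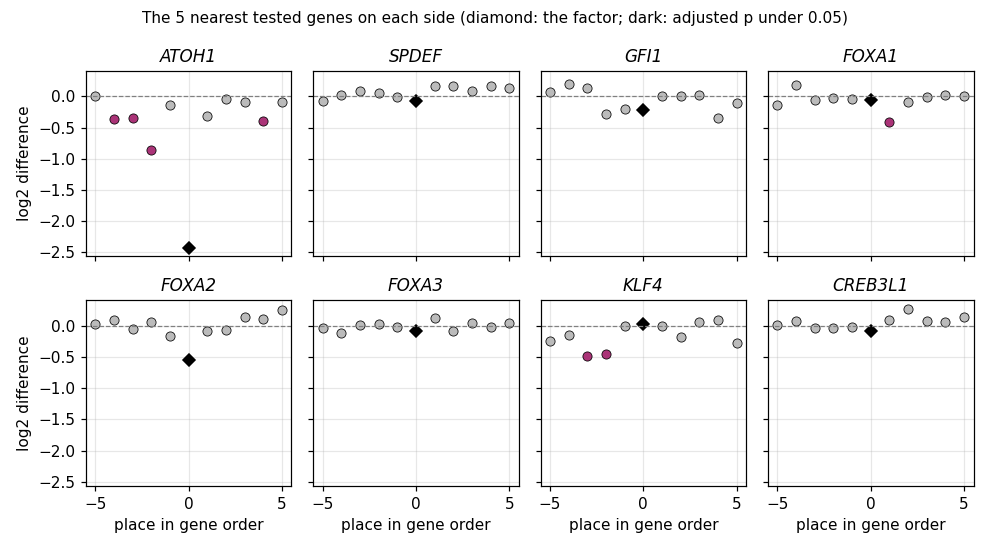
Log2 difference, laminin α1 minus control, of each factor (diamond) and of the 5 nearest tested genes on each side, by place in gene order; dark points passed the limma threshold. Around ATOH1 9 of 10 neighbours lie below 0, the lowest at -0.87, while the neighbours of FOXA2 lie between -0.16 and 0.26.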

How the data were processed

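Total RNA of 6 HT29 cultures, 3 per group, was hybridised to Affymetrix arrays. Per the submitters' processing notes, the authors made the deposited log2 values per probe set by RMA in Expression Console 1.1. That method gives all arrays nearly one distribution, so a shift of all genes could not be seen. The values were used as deposited. The brightest probe set stood for a gene, and 13812 genes with a mean above the 25th percentile were tested with limma (version 3.58.1, R 4.3.3; lmFit, then eBayes), as laminin α1 minus control, with no covariate and Benjamini-Hochberg adjustment at 0.05. Adjusted p values are from limma, and from this fit unless an alternative or a left-out array is named beside them. Arrays correlated at 0.991 to 0.998 within and 0.983 to 0.992 between groups. The 3 arrays per group limit the precision (median SE 0.0754), and as culture passages they show only the spread between passages.

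The factors and the gene lists were chosen with earlier results of these data known. Named genes were all 8 factors, up to 4 called genes per list by smallest p, called relatives and neighbours, the genes nearest in pattern, and HES1, TCF3, TCF12, CDX2, SOX9, MUC2 and LAMA1. A few further list members are named to complete a count. The fit was tested on simulated data. Alternatives changed the filter, probe set choice, normalization, variance model, array weights, block, threshold, fold and arrays. Promoters came from RefSeq, GRCh38.p14.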

Additional observations from a re-analysis of the deposited data

How the results depend on the processing

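Over the alternatives, the differences of the 8 factors moved by less than the spread between replicates, and those of all but KLF4 kept their sign. ATOH1 was past the threshold in every fit, and 0 factors were called higher in any. These calls only describe the factors, since the list was chosen with their differences known. The count of factors called lower, 2, was 1 with the filter at the 50th percentile (4 factors tested), with all probe sets tested separately, at adjusted p 0.01 and with a fold of at least 2, and 1 to 2 with arrays left out in turn. The 730 genes called became 442 with all probe sets tested separately, 4691 with array weights, which did not converge, 1596 with the replicate block, 393 at adjusted p 0.01, 67 with a fold of at least 2, and 405 to 1211 with arrays left out, 405 without control replicate 2, 429 without laminin α1 replicate 2 and 1211 without laminin α1 replicate 3. The 14 goblet products called lower became 7 with a fold of at least 2 and 12 to 14 with arrays left out. Deviations from the group means correlated at 0.390, 0.0216 and 0.530 between control and laminin α1 arrays of replicate numbers 1, 2 and 3. Between arrays of unlike number they correlated at -0.487 to 0.162. Whether equal numbers mark paired cultures was not tested. With the replicate block 2 factors and 14 goblet products were again called lower. The causes of these changes were not tested.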
